A study of Mus musculus with 8 samples.

Results

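The genes described here encode the subunits of the receptors for glutamate and GABA in the E18.5 mouse cortex, compared between Nuak1 knockout (KO) and wild-type (WT) embryos. They were chosen by symbol alone, as the Gria, Grik, Grin, Grid, Grm, Gabr and Gabbr genes with at least 1 count in any library. Of 21165 genes in the count table, 46 met this rule, and 41 of them are described here, 24 for glutamate and 17 for GABA receptors. Counts, sums and medians below cover these 41. A further matching gene, Gabrp, had 0 counts in all 8 libraries, which allows up to 3 counts in each. After the filter on low counts, 33 of the 41 were tested, 22 for glutamate and 11 for GABA.

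Glutamate is the main excitatory transmitter of the cortex. AMPA, kainate and NMDA receptors are glutamate-gated channels built from combinations of subunits, the delta subunits bind synaptic organizers, and the metabotropic receptors signal through G proteins. GABA opens chloride channels of the GABA-A class and acts on G protein-coupled GABA-B receptors. Subunit usage shifts around birth, and in immature neurons with high internal chloride GABA can depolarize the cell.

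NUAK1 is a kinase of the AMPK-related family. Both groups came from a constitutive Nuak1 line on a C57Bl/6JRj background, so that the kinase was missing from all tissues in KO embryos, and KO animals do not survive birth. Per the labels, the 4 KO embryos comprised 2 males and 2 females and the 4 WT embryos 1 male and 3 females, spread over 3 litters that each gave both genotypes (the design text counts 4 litters). The labels name no treatment. Poly-A RNA of the microdissected cortex was sequenced in paired-end reads, with 1 library per embryo. In the count table the libraries are named by genotype and number only (KO R1 to R4 and WT R1 to R4), so litter and sex could not be tied to a library and equal numbers pair no samples.

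Library totals ranged from 9643711 (WT R4) to 27014858 (KO R3) counts. Nuak1 itself averaged 14.2 ± 4.35 normalized counts (SD, n = 4) in KO against 1204 ± 260 in WT, with a KO maximum of 20.5 and a WT minimum of 877, so every library matched its genotype. Here a normalized count is the raw count after TMM scaling of its library to the average depth. A pair of libraries stood apart. KO R1 held 10681 normalized counts summed over the meningeal fibroblast markers, against 367 to 661 in the other 7 libraries. WT R4, the shallowest library, had the highest level of all 8 libraries for 19 of the 33 receptor genes tested, and its receptor genes lay at a median 0.32 log2 units above their gene means, against -0.13 to 0.03 in the other WT and -0.12 to 0.11 in the KO libraries. Its summed astrocyte and oligodendrocyte precursor markers (4111, against 2327 to 3508 in the others) and interneuron markers (4790, against 3624 to 4300) were also the highest, and its upper-layer neuron markers (17808, against 21551 to 26506) the lowest. The part of these cell types in the receptor levels was not tested. In bulk tissue, fewer cells of a type and less RNA per cell cannot be told apart. Counts of called genes are therefore also given without these libraries, for receptor genes, pathway genes and the upper-layer, deep-layer, interneuron and hippocampal markers.

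**Figure D1:**
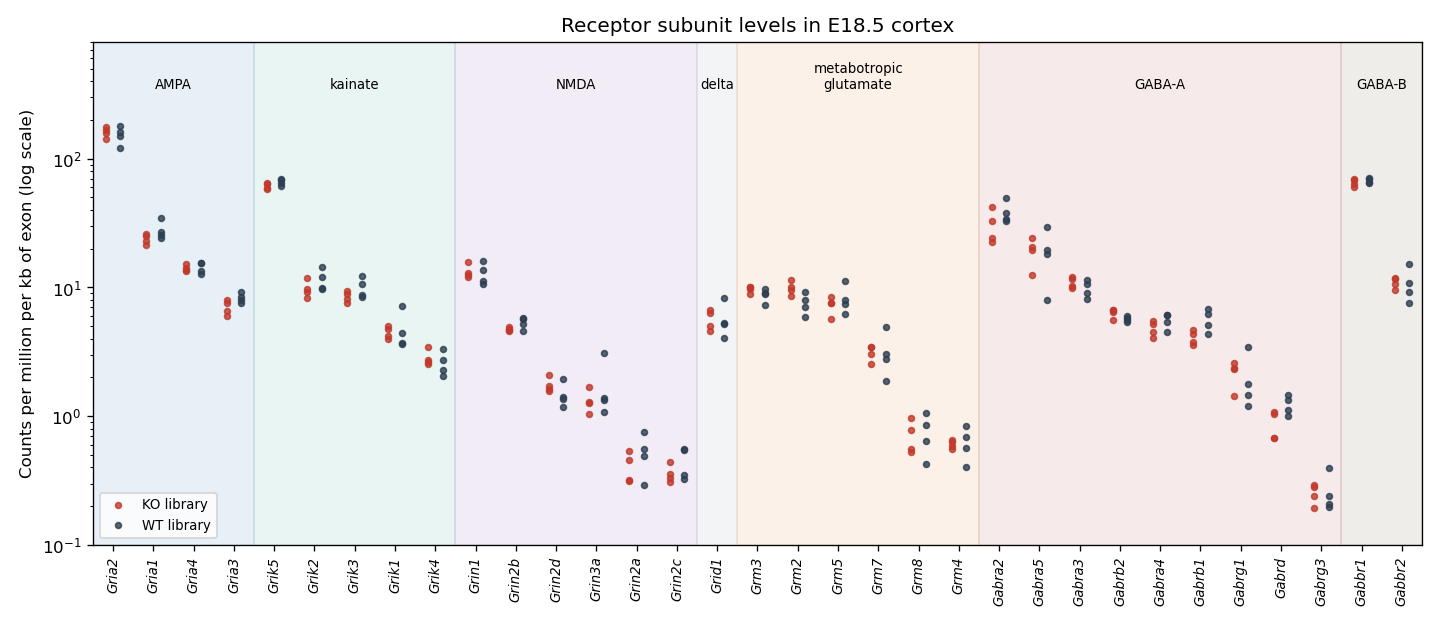
Levels of the 33 tested receptor genes, in CPM per kb of exon on a log scale, by receptor class (shaded), with 1 point per library (red, KO, and dark blue, WT). Gria2 stands highest, at 161 in KO and 153 in WT on average, and Gabrg3 lowest, at 0.252 and 0.259.

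The first question was which subunits the E18.5 cortex expressed. Levels between genes were compared as CPM (TMM-scaled counts for each 1000000 counts of a library) per kb of annotated exon, a scale that depends on the annotated length. The 41 genes together took 0.308 ± 0.0175% of all counts in KO and 0.316 ± 0.0129% in WT (SD, n = 4), so the total did not differ beyond the spread between libraries. Summed by class, AMPA subunits reached 206 ± 16.3 in KO and 204 ± 20.7 in WT, kainate subunits 87.1 ± 5.05 and 94.7 ± 7.86, GABA-B subunits 76.2 ± 5.38 and 78.6 ± 5.75, and NMDA subunits 22.0 ± 2.32 and 22.4 ± 3.78. The 12 GABA-A genes described reached 79.5 ± 7.43 and 87.8 ± 13.2, the 7 metabotropic glutamate receptor genes 31.4 ± 2.24 and 29.0 ± 4.99, and the rho genes of the GABA-A family 0.194 ± 0.0627 and 0.171 ± 0.0432. For each class sum the difference between genotypes was smaller than the larger of the SDs.

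A single subunit led the AMPA, kainate, NMDA and GABA-B classes, as the plot of levels shows. Gria2, the subunit that makes AMPA receptors impermeable to calcium once its transcript is edited, gave 78.2 ± 1.29% of the AMPA sum in KO and 74.9 ± 4.96% in WT. Grik5, which forms channels only together with other kainate subunits, gave 70.7% and 69.8% of the kainate sum. Grin1, the obligatory NMDA subunit, gave 60.8% and 57.4% of the NMDA sum. Gabbr1, the GABA-binding partner of the GABA-B pair, stood at 65.3 and Gabbr2, the G protein-coupling one, at 10.9 in KO, with 67.9 and 10.7 in WT. Among the GABA-A genes described, Gabra2 stood at 30.5 in KO and 38.7 in WT, Gabra5 at 19.2 and 18.8 and Gabra3 at 11.0 and 9.81. Grin2a, the NMDA subunit that rises after birth, stood at 0.409 and 0.524, against 4.75 and 5.32 for Grin2b.

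**Figure D2:**
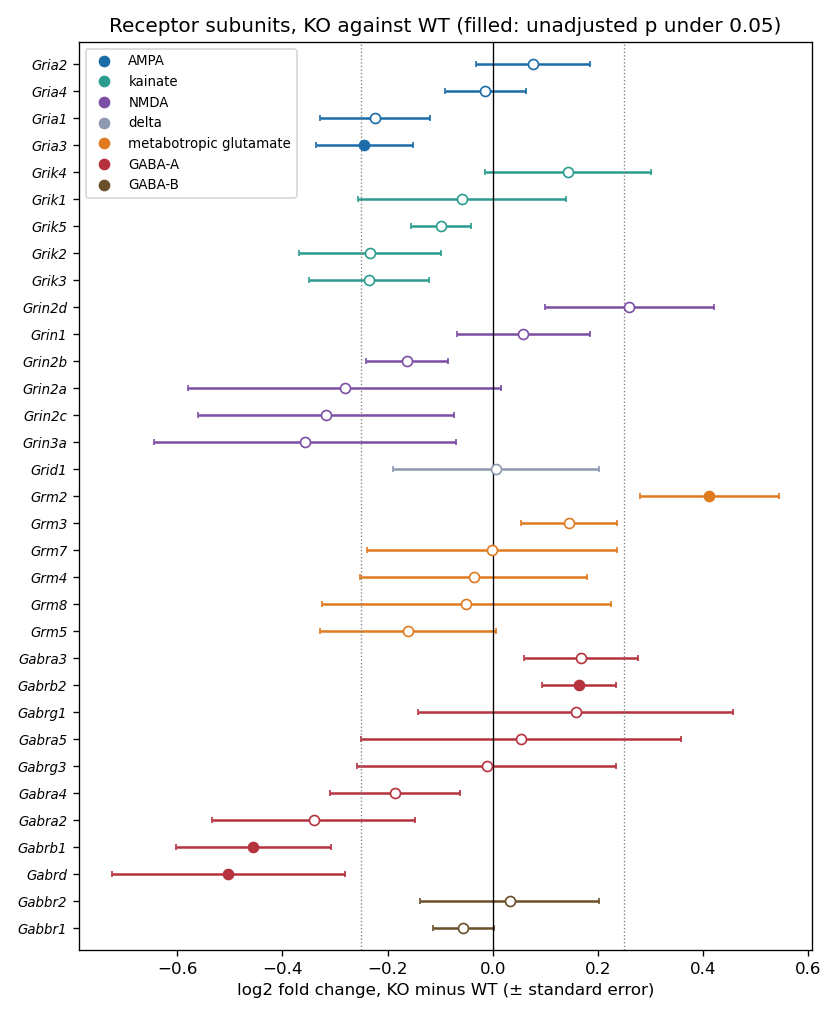
Log2 fold change (KO minus WT) with its standard error for the 33 tested receptor genes, coloured by class, with dotted lines at 0.25 on either side of 0. Filled points are the 5 genes with an unadjusted p under 0.05, 2 above and 3 below 0.

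The second question was whether loss of Nuak1 altered receptor expression. No receptor gene passed an adjusted p of 0.05, with edgeR or with DESeq2, while 9 of the 12699 genes tested did so with edgeR (0.0709%) and 0.551% of those tested did so with DESeq2. At an unadjusted p under 0.05, 5 of 33 receptor genes (15.2%) were called with edgeR, against a background of 7.69% over all genes. DESeq2 also called 5 of 33, against 7.21%, with Gria1 in place of Gabrd. Of the genes called with edgeR, Grm2 and Gabrb2 were higher in KO (background 4.51%), and Gria3, Gabrb1 and Gabrd were lower (background 3.18%). The thresholds stated for the study, an absolute log2 fold change over 0.25 with an unadjusted p under 0.05, were passed by Grm2, Gabrb1 and Gabrd, 9.09% of the 33, against a background of 4.25%. Of the 33 tested, 0 had no overlap between the genotypes, where the background was 4.49% (2.64% of genes higher and 1.85% lower in KO without overlap). Without KO R1 it was 2 of 33 (background 6.74%), without WT R4 2 (11.9%) and without both 4 (16.3%), in each case higher in KO.

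The receptor genes as a whole lay near 0. Their median log2 fold change was -0.05, with 12 of 33 above 0 (36.4%), beside a median of -0.01 and 45.6% above 0 over all genes. The median was -0.05 for the 22 glutamate receptor genes and -0.01 for the 11 GABA receptor genes. The ionotropic glutamate subunits had 5 of 16 genes above 0 and a median of -0.13, and the metabotropic receptors 2 of 6 with a median of -0.02. These figures depended on WT R4. Without it the receptor median was 0.07, with 19 of 33 genes above 0, the GABA receptor median was 0.20, and 8 genes had an unadjusted p under 0.05, 5 of them higher in KO, against a background of 12.4%. Without WT R2, which had the lowest WT level for 20 of the 33 genes, the median was -0.13 and 8 genes were called, 1 of them higher, against a background of 8.12%. Without KO R1 the median was -0.02 and 4 genes were called, against 5.63%. Without KO R4, 3 genes were called (background 6.43%), and without WT R1 also 3 (6.0%). With both KO R1 and WT R4 left out, 8 genes were called, 6 of them higher, against a background of 11.1%. No receptor gene reached an adjusted p of 0.05 in any of these fits with edgeR.

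**Figure D3:**
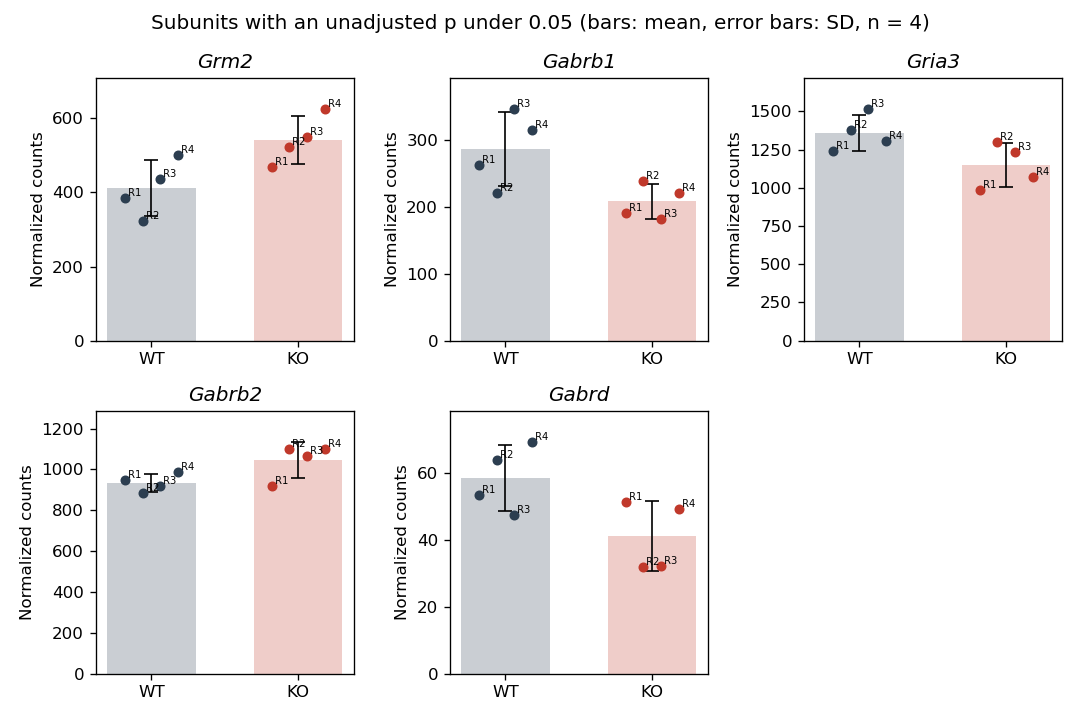
Normalized counts in each library (points, labelled by number) for the 5 receptor genes with an unadjusted p under 0.05, with the mean as a bar and the SD over 4 libraries as an error bar. For each gene at least 1 library lies within the range of the other genotype, for example WT R4 (501.7) for Grm2.

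Grm2 had the lowest p among the receptor genes. It encodes mGlu2, a metabotropic receptor of axon terminals that couples to Gi proteins and restrains transmitter release, and lies on chr9:106546868-106558440, minus strand (NCBIM37). KO R1 to R4 had 470.2, 523.0, 548.9 and 624.6 normalized counts, and WT R1 to R4 had 385.3, 322.5, 437.3 and 501.7. WT R4 alone lay above the lowest KO library, so the groups overlapped. The means were 542 ± 64.3 in KO and 412 ± 76.2 in WT (SD, n = 4). The log2 fold change was 0.41 with a standard error (SE) of 0.13, an unadjusted edgeR p of 0.00967 and a Benjamini-Hochberg adjusted p of 0.526 over all genes. It stayed between 0.31 and 0.52 with any single library left out, and the unadjusted p under edgeR then ranged from 0.00121 to 0.0383. Without KO R1 and WT R4 together it was 0.59, with an edgeR adjusted p of 0.127, the lowest over all alternatives, which reached up to 0.916.

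The promoters of Grm2 and Gabrb1 are shown because these genes had the lowest unadjusted p in either direction. They run from 250 bases before to 50 bases after the start (RefSeq, GRCm38.p6), on chr9:106656060-106656359 (minus strand) for Grm2 and on chr5:71657671-71657970 (plus strand) for the first of the Gabrb1 starts. Capitals mark the GC box GGGCGG on the printed strand, and matches were sought on both strands.
Grm2: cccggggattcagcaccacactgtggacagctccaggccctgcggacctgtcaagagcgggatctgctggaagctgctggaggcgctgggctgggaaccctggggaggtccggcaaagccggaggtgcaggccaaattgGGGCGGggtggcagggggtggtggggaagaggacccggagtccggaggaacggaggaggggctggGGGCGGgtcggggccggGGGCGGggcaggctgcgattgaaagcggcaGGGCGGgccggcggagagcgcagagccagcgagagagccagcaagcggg
Gabrb1: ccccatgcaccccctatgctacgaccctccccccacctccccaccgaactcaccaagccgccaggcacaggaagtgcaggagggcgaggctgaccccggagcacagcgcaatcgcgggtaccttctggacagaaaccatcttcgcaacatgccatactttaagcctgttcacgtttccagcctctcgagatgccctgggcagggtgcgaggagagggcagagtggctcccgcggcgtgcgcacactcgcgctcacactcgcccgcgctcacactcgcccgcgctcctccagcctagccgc
The Grm2 window was 72% G or C and held 22 CG pairs and 4 GC boxes. The printed Gabrb1 window was 66% G or C, with 25 CG pairs and 0 GC boxes. The window of the second Gabrb1 start, on chr5:71699682-71699981 and not printed, was 50.3% G or C, with 9 CG pairs and 0 GC boxes. None of these windows held a TATAAA or a TGACG motif. Of 32851 mouse promoters of the same length, 35.7% held the GC box, 13.6% TATAAA and 20.8% TGACG. Promoters were found for 31 of the 41 receptor genes, and of their 38 windows 50% held the GC box, 10.5% TATAAA and 13.2% TGACG.

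The other metabotropic receptors described had smaller log2 fold changes. Grm3, the other Gi-coupled receptor of the same group as Grm2, had a log2 fold change of 0.15 (591.9, 597.5, 527.9 and 580.1 normalized counts in KO R1 to R4 and 538.4, 570.5, 429.4 and 530.4 in WT R1 to R4). Grm5, which signals through Gq and phospholipase C, had a log2 fold change of -0.16. Those of Grm4, Grm7 and Grm8, presynaptic receptors of the third group, were -0.04, -0.0012 and -0.05. None of these had an unadjusted p under 0.05. On the level scale Grm3 and Grm2 stood at 9.72 and 9.88 CPM per kb in KO and 8.75 and 7.51 in WT. Of the summed level of the 6 tested receptors of this kind, Grm2 took 31.5% in KO and 25.9% in WT, and Grm5 23.3% and 28.1%.

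Among AMPA subunits, Gria3 was lower in KO. Its 4 KO libraries had 985.2, 1298, 1235 and 1073 normalized counts, and its WT libraries 1242, 1378, 1513 and 1306. KO R2 lay above WT R1, so the groups overlapped. The means were 1148 ± 144 and 1360 ± 116 (SD, n = 4). This was a log2 fold change of -0.24 (SE 0.09), with an unadjusted edgeR p of 0.0228 and an adjusted p of 0.611. The unadjusted p was under 0.05 in 5 of the 8 fits that each left out 1 library, and not without KO R1, KO R4 or WT R3, where it reached up to 0.0774 in edgeR. As a share of the AMPA sum per kb, Gria3 took 3.20 to 3.69% in the KO libraries and 3.85 to 4.49% in the WT libraries, with no overlap. Gria1, the subunit tied to activity-dependent synaptic insertion, had a log2 fold change of -0.22 (2374 ± 218 against 2778 ± 450 normalized counts, SD, n = 4). Its unadjusted p was 0.0556 with edgeR and 0.0494 with DESeq2. Without WT R4 its log2 fold change was -0.10, with an unadjusted edgeR p of 0.166. WT R4 had the highest Gria1 level (3434) and the lowest Gria2 level (13882) of all libraries. Gria2 averaged 18555 ± 1651 normalized counts in KO and 17594 ± 2829 in WT (SD, n = 4), a log2 fold change of 0.08, and Gria4 had one of -0.01.

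On all libraries, no kainate or NMDA subunit had an unadjusted p under 0.05 with edgeR, and neither had Grid1. Of the kainate subunits, Grik2 and Grik3, which can form channels on their own, both had log2 fold changes of -0.23, with an edgeR p of 0.0636 unadjusted for Grik3. With any single library left out, that of Grik2 ranged from -0.32 to -0.10 and was nearest 0 without WT R4 (-0.10) and without KO R1 (-0.16). That of Grik3 ranged from -0.31 to -0.12 and was nearest 0 without WT R3. The unadjusted edgeR p was under 0.05 without KO R2 for Grik2 (0.0324) and without WT R2 (0.0204) or WT R4 (0.0246) for Grik3. Grik1 (-0.06), Grik4 (0.14) and Grik5 (-0.10) lay closer to 0, and the unadjusted edgeR p of Grik5 was 0.0483 without WT R2. Grik3 ranged from 1122 to 1391 normalized counts in KO and from 1255 to 1807 in WT.

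Of the NMDA subunits, Grin2b, the main partner of Grin1 before birth, had 629.1, 647.7, 620.1 and 667.8 normalized counts in KO and 763.5, 623.1, 780.8 and 707.7 in WT. WT R2 alone lay within the KO range. Its log2 fold change was -0.16, with an unadjusted edgeR p of 0.0607. That p was under 0.05 in 1 of the 8 fits that left out 1 library, without WT R2 (0.00830). Grin2d, a subunit of early neurons and interneurons, had a log2 fold change of 0.26 with an unadjusted edgeR p of 0.135, and Grin1 one of 0.06. For Grin2d that p was under 0.05 in 1 of the 8 left-out fits, without WT R4 (0.0102). Its normalized counts then did not overlap between the genotypes (background 11.9%). Within the NMDA sum per kb, Grin1 took 59.96 to 62.2% in KO and 53.5 to 58.9% in WT, and Grin2d 7.58 to 8.21% in KO and 5.91 to 7.32% in WT. Neither share overlapped between the genotypes. Those of Grin1, Grin2d and Gria3 were the 3 shares of a class without overlap, leaving aside Grid1, which is alone in its class. By normalized counts all 3 genes overlapped on all libraries. Shares within a class depend on each other, no background over all genes was computed for them, and no test was run on them. Grin3a, a subunit that lowers calcium entry, had a log2 fold change of -0.36 that rested on WT R4 (805.7 normalized counts, against 273.5 to 436.4 in the other 7 libraries). Without WT R4 it was 0.07. Grin2a (-0.28) and Grin2c (-0.32) were near the low end of the levels, at 25.4 to 65.9 normalized counts over both. The delta gene Grid1 had a log2 fold change of 0.01 and a level of 5.67 CPM per kb in KO and 5.69 in WT.

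Of the 9 GABA-A genes described and tested, 3 (33.3%) had an unadjusted edgeR p under 0.05, against a background of 7.69% over all genes. Among them, the beta subunits Gabrb1 and Gabrb2 lay on opposite sides of 0. Gabrb1 had 190.9, 238.7, 182.6 and 221.2 normalized counts in KO and 263.0, 220.8, 346.2 and 315.9 in WT. WT R2 fell within the KO range, and the other WT libraries lay above all KO libraries. The means were 208 ± 26.2 and 286 ± 55.6 (SD, n = 4). This gave a log2 fold change of -0.46 (SE 0.15), with an unadjusted edgeR p of 0.0103 and an adjusted p of 0.532. It stayed between -0.57 and -0.35 with any single library left out, where the unadjusted edgeR p ranged from 0.00162 to 0.0359.

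Gabrb2, the beta subunit of the most common adult receptor, had 917.3, 1102, 1065 and 1098 normalized counts in KO and 947.4, 886.8, 916.9 and 988.1 in WT. Here KO R1 fell within the WT range and the other KO libraries lay above it. These counts gave a log2 fold change of 0.16 (SE 0.07), with an unadjusted edgeR p of 0.0392 and an adjusted p of 0.631. The unadjusted edgeR p was under 0.05 in 2 of the 8 fits that left out 1 library, those without KO R1 (0.00353) and WT R4, and reached up to 0.112 in the others.

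Gabrd, the delta subunit of receptors outside synapses, was a low-count gene. It had 51.25, 31.93, 32.18 and 49.24 normalized counts in KO and 53.43, 63.97, 47.56 and 69.25 in WT, with WT R3 within the KO range. Its log2 fold change was -0.50 (SE 0.22), with an unadjusted edgeR p of 0.0439 and an adjusted p of 0.645. Its unadjusted edgeR p was under 0.05 in 3 of the 8 fits that left out 1 library, those without KO R1, KO R4 and WT R3, and reached up to 0.131 in the others. With DESeq2 it was 0.0616 on all libraries.

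The alpha subunits described here, which set much of the drug and transmitter sensitivity of the receptor, had no unadjusted p under 0.05 on all libraries. Gabra2, a main alpha subunit of the embryonic brain, had a log2 fold change of -0.34 with wide scatter, from 893 to 1674 normalized counts in KO and from 1305 to 1971 in WT, and an unadjusted edgeR p of 0.105. Gabra5, the alpha subunit of extrasynaptic receptors in the hippocampus and deep cortex, ranged in WT alone from 351.4 (WT R3) to 1297 (WT R4) and had a log2 fold change of 0.05. Gabra3 (0.17) and Gabra4 (-0.19) lay on either side of 0. Gabrg1 had a log2 fold change of 0.16 and Gabrg3 one of -0.01. In 1 of the 8 fits that left out 1 library, the unadjusted edgeR p fell under 0.05 for each of 4 genes. These were Gabra2 without KO R3 (0.00787), Gabra4 without WT R2 (0.0416), and Gabra3 (0.0333) and Gabrg1 (0.0243) without WT R4. The GABA-B genes gave -0.06 for Gabbr1 and 0.03 for Gabbr2.

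Many GABA-A genes lie in clusters. The cluster on chr5:71142286-72529628 (NCBIM37) held genes on both sides of 0, with log2 fold changes of 0.16 for Gabrg1, -0.34 for Gabra2, -0.19 for Gabra4 and -0.46 for Gabrb1. On chrX:69501338-70087941, Gabra3 (0.17) was tested, and its neighbours Gabre and Gabrq had too few counts.

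**Figure D4:**
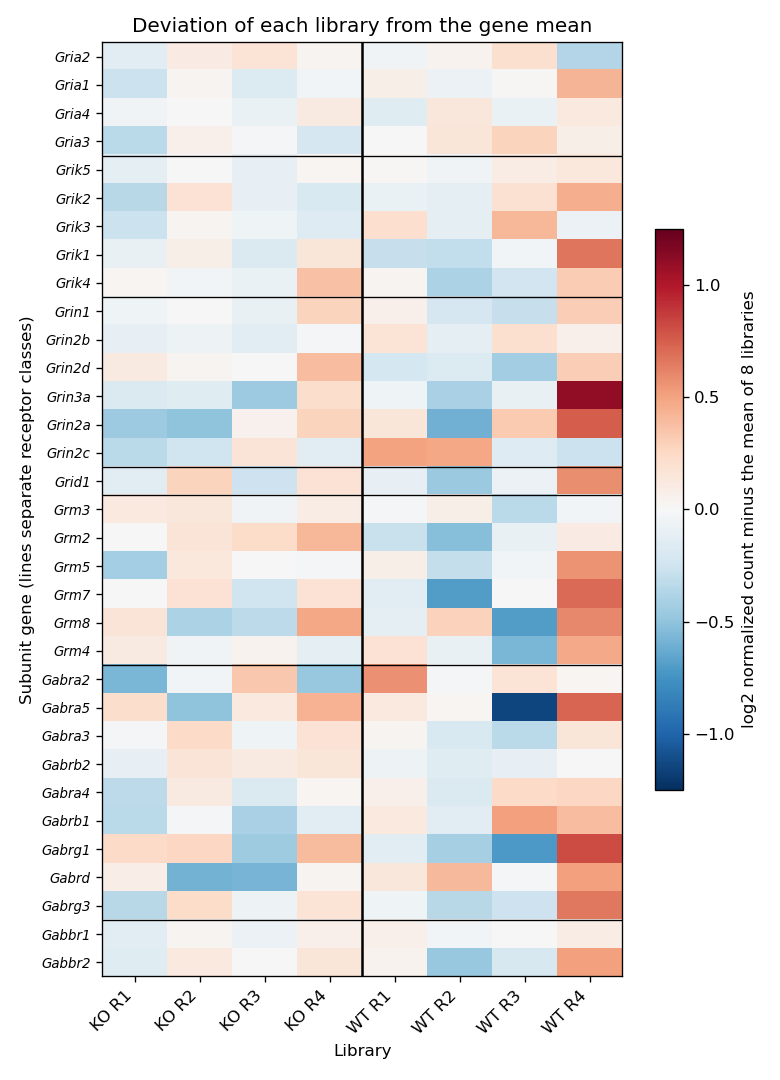
Log2 normalized count of each library minus the mean of the 8 libraries for that gene (red, above, and blue, below) for the 33 tested genes, with KO libraries left and WT libraries right of the line. The WT R4 column is red for most genes, with Gria2 as an exception in blue.

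The 8 receptor genes left untested had few counts. Summed over all libraries, Gabrr1 had 1 count, Gabrr3 had 3, Grm6 had 4, Gabra6 had 15, Grin3b had 22, Gabre had 23, Gabrr2 had 45 and Gabrq had 71, where the lowest total among tested receptor genes was 276 (Grin2c). Grm6 and the rho genes Gabrr1 to Gabrr3 are best known from the retina, and Gabra6 from cerebellar granule cells. Normalized counts of Gabre did not overlap (1.28 to 3.04 in KO and 3.08 to 5.07 in WT), but rested on 1 to 5 counts per library.

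The genes that assemble, anchor and regulate these receptors were examined through fixed lists. Of 56 listed genes, 52 were in the table and 49 were tested. No gene passed an adjusted p of 0.05 by edgeR, 4 (8.16%) had an unadjusted p under 0.05, near the background of 7.69%, and all 4 were lower in KO. Without KO R1, 0 of 50 had an unadjusted p under 0.05 (background 5.63%), without WT R4 2 of 49 (12.4%) and without both 3 of 49 (11.1%). Of these 4 genes Neto2 alone was still called without WT R4 and without both libraries. The median log2 fold change over the 49 was -0.02, with 19 above 0. Among 10 AMPA auxiliary subunits tested, Cacng3, a TARP that carries AMPA receptors to synapses, had 76.7 ± 12.4 normalized counts in KO and 105 ± 17.2 in WT (SD, n = 4). Its log2 fold change was -0.44 (SE 0.16), with an unadjusted edgeR p of 0.0209. Of the pair of kainate auxiliary subunits, Neto2 had 2084 ± 22.6 normalized counts in KO and 2254 ± 127 in WT (SD, n = 4), without overlap. Neto2 was the 1 gene of the 49 (2.04%) without overlap, against a background of 4.49%. Its log2 fold change was -0.11, with an unadjusted edgeR p of 0.0486.

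Among 17 scaffold genes of glutamate synapses, Dlg4, which encodes PSD-95, had 5754 ± 193 normalized counts in KO and 6361 ± 536 in WT (SD, n = 4). Its log2 fold change was -0.14, with an unadjusted edgeR p of 0.0430. Among 6 tested partners of the delta receptors, the secreted organizer Cbln4 had 6.41, 48.7, 26.0 and 12.1 normalized counts in KO and 73.0, 5.26, 104 and 191 in WT. WT R2 had the lowest value of all 8 libraries while the other WT libraries lay above all KO libraries. The log2 fold change was -2.01 (SE 0.78), with an unadjusted edgeR p of 0.0263. None of the 10 GABA-A scaffold and trafficking genes or the 2 tested GABA-B auxiliary subunits had an unadjusted p under 0.05. The chloride cotransporters that set the direction of the GABA current had log2 fold changes of -0.01 for Slc12a2 (NKCC1) and 0.01 for Slc12a5 (KCC2). The value for Slc12a5 rested on WT R4. Its normalized counts were 739.2, 665.9, 649.2 and 787.2 in KO R1 to R4 and 583.6, 568.7, 609.1 and 1096 in WT R1 to R4. Without WT R4 the log2 fold change was 0.28 (SE 0.08), with an unadjusted edgeR p of 0.00580 and an adjusted p of 0.240. The genotypes then did not overlap, which held for 4.08% of the 49 tested pathway genes, against a background of 11.9%.

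Cell type markers were set beside these values. The 9 upper-layer neuron markers had 5 genes with an unadjusted edgeR p under 0.05, all higher in KO, and summed to 23926 to 26506 normalized counts in KO and 17808 to 21776 in WT, without overlap. The 9 deep-layer markers had 5 lower and 1 higher, and summed to 9855 to 10947 in KO and 11160 to 12699 in WT, also without overlap. Without KO R1, without WT R4 and without both, the upper-layer list had 6, 5 and 6 genes higher and 0 lower, and the deep-layer list had 5 lower each time and 1, 0 and 0 higher, against backgrounds of 5.63%, 12.4% and 11.1%. Of the 9 deep-layer markers, none reached an adjusted edgeR p under 0.05 with all libraries, Crym did so (lower) without WT R4, and Crym and Tle4 did so (both lower) without both libraries, where 0.156% of all genes passed. Interneuron markers summed to 3683 to 3980 in KO and 3624 to 4790 in WT. Of the 11 tested, 1 lay above 0, beside 45.6% of all genes, with a median log2 fold change of -0.15. Npas1 was called higher and Gad2 lower (18.2%, background 7.69%). Gad2 alone was called without KO R1, Gad2 and Npas1 without WT R4, and Npas1 alone without both libraries. In these fits 2, 3 and 5 of the 11 lay above 0. The part of these cell types in the receptor values was not tested. Markers of neighbouring regions were also present. All 6 striatal markers tested had a log2 fold change above 0 (5 of 7 without KO R1 and 5 of 6 without both KO R1 and WT R4). The whole striatal list, with its untested genes, summed to 458 to 765 normalized counts in KO and 314 to 634 in WT. Rarb, a retinoic acid receptor, had 47.4, 31.9, 28.5 and 27.0 normalized counts in KO and 21.6, 16.6, 11.9 and 13.5 in WT, without overlap. Its log2 fold change was 1.02 (SE 0.28), with an unadjusted edgeR p of 0.00411 and an adjusted p of 0.440. The striatal markers Drd2, Isl1 and Tac1 did not pass the filter. The 4 thalamic markers tested had 3 above 0 and 0 with an unadjusted edgeR p under 0.05, and the list summed to 745 to 929 in KO and 610 to 916 in WT, while Gbx2 did not pass the filter. The 6 hippocampal markers had 2 above 0 and also 0 with an unadjusted p under 0.05 on all libraries, and summed to 1087 to 1429 in KO and 1123 to 1476 in WT. Zbtb20 was the 1 hippocampal marker called without KO R1, without WT R4 and without both, lower in KO each time (16.7%, against backgrounds of 5.63%, 12.4% and 11.1%). The part of these regions in the receptor values was not tested.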

How the data were processed

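RNA of the cortex of 4 KO and 4 WT embryos was sequenced. Adapter and quality trimming by the authors used Cutadapt 1.13 and Prinseq (Phred 20, reads under 25 bp removed), TopHat2 2.0.13 aligned reads to mm9, SAMtools 0.1.19 handled alignments, and HTSeq-count gave counts per gene, whose strand setting is not given in the sources used here. The deposited values are raw counts, not normalized. Reads from overlapping antisense genes could be merged in such counts.

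The quasi-likelihood test of edgeR 4.0.16 (R 4.3.3) was applied after filterByExpr and TMM, two-sided, with Benjamini-Hochberg adjustment over 12699 genes. The SE is the absolute log2 fold change over the square root of F. Counts of 9643711 to 27014858 per library set the precision, and limits from 0 counts cover counting error only. P-values measure the spread between 4 embryos per genotype. Exon lengths came from GENCODE on NCBIM37, the assembly behind mm9. Receptor genes with an unadjusted p under 0.05, past the study thresholds or without overlap were named with all libraries, and list genes where the unadjusted p was under 0.05. Receptor genes and lists were chosen with earlier results of these data known. Alternatives were DESeq2 1.42.0, its size factors, other filters and left-out libraries. Of the genes that met the rule, 5 are not reported here, though all were in every fit. No column of the table was left out.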

Additional observations from a re-analysis of the deposited data

Results flagged for a closer look

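Grin3a in WT was marked by a sample far from the others. WT R4 had 806 normalized counts, against 282 to 360 in the other WT libraries, a gap that exceeded the critical value of Dixon's test for 4 libraries. Among 66 sets of 4 libraries (33 genes in either genotype) it was the 1 set past that value, where chance gives about 3.3.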

How the results depend on the processing

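With each of the 8 libraries left out in turn, between 3 and 8 receptor genes had an unadjusted p under 0.05 (3 without KO R4 or WT R1, 8 without WT R2 or WT R4), against backgrounds of 5.03% (without WT R3) to 12.4% (without WT R4). Between 3 and 6 passed the thresholds of the study, with 5 without KO R2 (background 5.35%), 5 without WT R2 (4.93%) and 6 without WT R4 (6.57%), over backgrounds of 3.29% to 6.57%. Leaving out KO R1 and WT R4 together, an alternative chosen after seeing the data, gave 8 (background 11.1%) and 7 (6.48%), and a GABA receptor median of 0.26. DESeq2 gave 5 (7.21%) and 2 (3.85%), its size factors in edgeR 5 (7.70%) and 3 (4.28%), no filter on low counts 6 (6.79%) and 3 (4.33%), and a minimum of 10 counts in every library 5 (7.89%) and 3 (4.19%). Overlap, pathway genes and markers without KO R1, WT R4 or both were also examined after seeing the data. The count past an adjusted p of 0.05 was 0 under each of these alternatives. The median log2 fold change ranged over the left-out libraries from -0.13 to 0.07 for all receptor genes, from -0.15 to 0.05 for glutamate and from -0.11 to 0.20 for GABA receptor genes. None of the 5 genes named for their unadjusted p changed sign under any alternative. Their choice by p in these same data made that likely beforehand. Of the 33 genes, 16 changed sign under at least 1 alternative. Grm7 took a log2 fold change of 0.0052 with DESeq2 size factors, 0.0084 with no filter and 0.0071 with the minimum of 10 counts. Without KO R1 and WT R4 the reversed values were Gria4 0.046, Gabrg3 0.33, Grin2a 0.057, Gabbr1 0.010, Grm5 0.13, Grik1 0.23, Grm8 0.11, Grm7 0.30, Grin3a 0.094, Grm4 0.088. Over the single left-out libraries the genes with a change of sign ranged as follows: Gria4 -0.067 to 0.033, Gabrg3 -0.13 to 0.24, Gabra5 -0.19 to 0.35, Grm5 -0.28 to 0.027, Grin1 -0.035 to 0.19, Grik1 -0.17 to 0.21, Grid1 -0.13 to 0.24, Grm8 -0.26 to 0.14, Gabbr2 -0.11 to 0.24, Grm7 -0.20 to 0.29, Grin3a -0.53 to 0.071, Grm4 -0.18 to 0.12, Gabrg1 -0.010 to 0.54, Gria2 -0.015 to 0.17. No paired analysis was possible because libraries bear a genotype and a running number and no litter, so the planned fit with litter as a replicate block was not run.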

Other observations

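Ratios between receptor subunits and between the chloride cotransporters, per kb of exon, overlapped between the genotypes. Grin2b to Grin2a was 12.2 ± 3.11 in KO and 11.2 ± 3.68 in WT (SD, n = 4). Grin2b to Grin2d was 2.75 ± 0.266 in KO and 3.77 ± 0.985 in WT, with a WT range of 2.68 to 4.93. Gria2 to Gria1 was 6.81 ± 0.629 and 5.68 ± 1.56, and Slc12a5 to Slc12a2 was 0.400 ± 0.0572 and 0.404 ± 0.163. WT R4 held the lowest Gria2 to Gria1 ratio (3.51, against 5.62 to 6.98 in the other WT libraries) and the highest Slc12a5 to Slc12a2 ratio (0.644, against 0.287 to 0.367). It also held the lowest WT ratio of Grin2b to Grin2d (2.68). No test was run on any ratio.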
